A study of Drosophila melanogaster with 8 samples.

Results

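The 10 genes described here form the core of the apoptosis machinery of Drosophila melanogaster: the initiator caspases Dronc and Strica, the effector caspases Drice, Dcp-1, Decay and Damm, the adaptor Dark, the caspase inhibitor Diap1 and its antagonists rpr and hid. They were listed by FlyBase symbol and not by a cutoff on their values, but with earlier results of these data known. All 10 were matched by identifier among the 17713 genes of the count table. RNA-seq was performed on larval midguts, 96 h after egg laying, in 4 genotypes with 2 libraries each, from animals of both sexes pooled. All 4 genotypes carry y w. The control called y w is wild type for Pngl, the gene for the cytosolic N-glycanase of the fly. Pngl+/- carries 1 Pngl[ex14] allele over the balancer chromosome that the labels write CyoKr>GFP. The group called Pngl Dp/+ is homozygous for Pngl[ex14] and carries a genomic duplication of Pngl inserted at the site that the labels call VK27, and Pngl-/- is homozygous for Pngl[ex14] without a duplication. The labels give 40 midguts per genotype while the methods of the study give a smaller number and another insertion site, so it is not certain which rescue line these libraries represent. The methods call the libraries of a genotype biological replicates, while the labels do not say whether they came from separate dissections, and p-values measure the spread between these libraries. Animals were matched by age and not by stage.

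Caspases are cysteine proteases that are made as inactive precursors. In the fly, Dronc is activated on the apoptosome that Dark, the homologue of Apaf-1, assembles, and then cleaves effector caspases such as Drice and Dcp-1, which cut the proteins of the dying cell. Diap1, a ubiquitin ligase of the IAP (inhibitor of apoptosis) family, holds caspases in check, and Reaper and Hid, the products of rpr and hid, bind Diap1 and release them. Much of this control acts on proteins, and RNA levels do not measure caspase activity. The larval midgut is removed at metamorphosis after a pulse of the steroid hormone ecdysone.

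The libraries held 20414011 to 28382919 counts. Values below are counts scaled to a common library size with TMM factors (CPM), and levels compared between genes are further divided by exon length in kilobases (RPKM). A call of higher or lower required a 1.5-fold difference or more, together with an adjusted p no greater than 0.05 (Benjamini-Hochberg) in the edgeR quasi-likelihood test over all 8 libraries. Of the 10 genes, 8 passed the filter of 5 CPM in at least 2 libraries and were tested with 7665 genes. The other two, rpr and hid, were tested in a second fit of 9762 genes with at least 1 CPM. The count of Pngl itself went against its label: it was 33.6 and 31.4 CPM in y w, 45.0 and 41.5 in Pngl+/-, 21.1 and 20.7 in Pngl Dp/+, and 58.3 and 56.7 CPM in the libraries labelled Pngl-/-. A count per gene does not show which exons the reads came from, so it cannot check the allele. RNA of midgut cells was looked for with 6 enterocyte genes, all detected, whose summed level was 3587 to 3767 CPM in y w and 11105 to 12000 CPM in the other genotypes. Most of this sum came from alphaTry and betaTry, which were lowest in y w, as was Myo31DF. Mal-A1, nub and Amy-p had higher means in y w (101, 20.1 and 259 CPM) than in Pngl+/- (31.1, 17.0 and 161 CPM). All 6 had lower means in y w than in the libraries labelled Pngl-/-. RNA of neighbouring tissues was present as well. Fat body genes summed to 24467 to 52959 CPM, above the enterocyte genes in every genotype. Salivary gland genes summed to 3552 to 6789 CPM, and in y w (3591 to 3661 CPM) they were near the enterocyte sum. Detection of the enterocyte genes thus does not show that the RNA came from midgut alone. The 2 germ line genes stayed at or below 1.08 CPM. In bulk tissue, fewer cells of a type and less RNA per cell cannot be told apart.

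In the libraries labelled Pngl-/-, Strica was the member called higher against all 3 controls. Decay, Dcp-1 and Diap1 also lay above the 6 control libraries there, but each fell short of the fold limit in at least 1 comparison. In every comparison, those between controls included, 7 or 8 of the 8 tested members had genotypes that did not overlap. The share of all genes without overlap was not counted, so a lack of overlap, here or below, does not set a member apart. Strica (FBgn0033051, chromosome 2R, 6020311 to 6023144, minus strand, dm6) encodes a caspase with a long serine- and threonine-rich prodomain. Its level was 19.9 and 20.1 CPM in y w. It was 20.4 and 20.6 CPM in Pngl+/-, while Pngl Dp/+ had 21.1 and 21.5 CPM. In the libraries labelled Pngl-/- it was 33.0 and 31.9 CPM. The 6 control libraries lay within a narrow range and both libraries labelled Pngl-/- lay above all of them. The log2 fold change was 0.70 ± 0.06 (SE) against y w (1.62-fold, adjusted p = 2.5e-08), 0.66 ± 0.06 relative to Pngl+/- (1.58-fold, adjusted p = 1.7e-07) and 0.61 ± 0.06 relative to Pngl Dp/+ (1.52-fold, adjusted p = 1.5e-07). Among the controls, the differences between neighbours in the order of levels did not pass the test (adjusted p = 0.441 and 0.639). Against Pngl Dp/+ the fold change lay just above the limit of 1.5, and a test of Strica against that fold change itself kept the call against y w but lost those against Pngl+/- and Pngl Dp/+ (adjusted p = 0.237 and 0.502). With library totals only, without composition normalization, the log2 fold change fell to 0.31 against y w and 0.26 against Pngl Dp/+, and both calls were lost. In that scaling the median of all tested genes moved to -0.39 and -0.36, and relative to that median Strica stood at 0.71 and 0.62. A change of scaling shifts all genes nearly alike, so values relative to the median hardly can change and do not test the calls.

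Of the 8 members tested, Strica alone (1 gene) was called higher against all 3 controls, beside 4.03% of all tested genes called higher and 8.51% called lower in all 3. The genes whose pattern over the 8 libraries was most like that of Strica were Tsp29Fa, CG4210 and cert, with a root mean square difference of centred log2 CPM of 0.0334, 0.0421 and 0.0431.

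**Figure D1:**
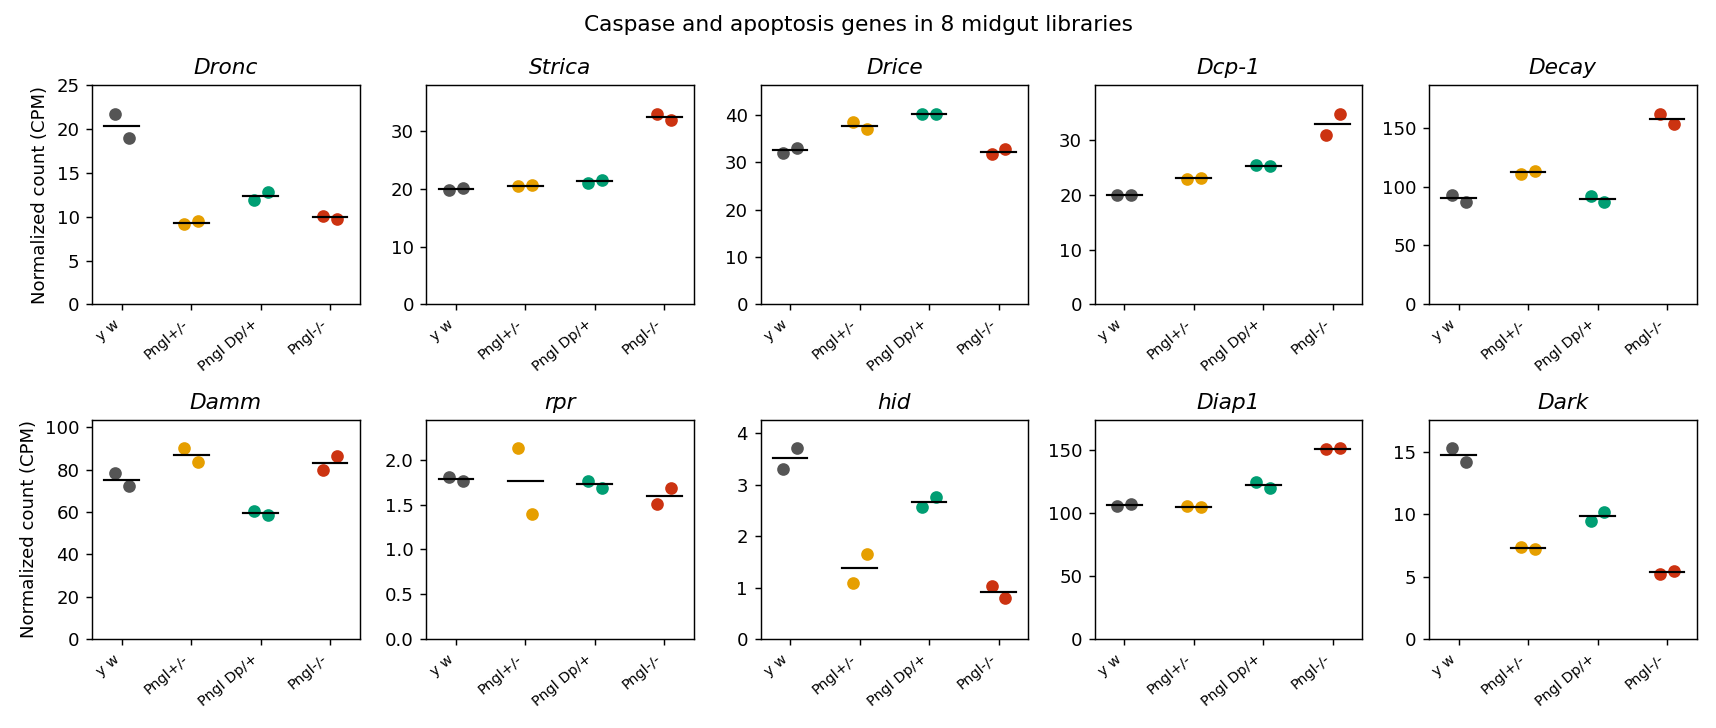
TMM-normalized counts (CPM, linear axis from 0 in each panel) of the 10 genes in the 8 libraries, with a point for each library and a line at the mean of the 2 libraries of a genotype. Strica lies at 31.9 to 33.0 CPM in the libraries labelled Pngl-/- and at 19.9 to 21.5 CPM in the 6 control libraries, while Dronc, Dark and hid are highest in y w.

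Strica shares exon bases with the targeted gene. Pngl lies on the opposite strand, and 385 exon bases are common to both, which is 14.2% of the exon length of Strica and 14.4% of that of Pngl. The libraries were made with a stranded kit, but whether strand was used in the counting is not given, so reads from this stretch cannot be assigned with certainty. The ratio of Strica to Pngl per kilobase of exon was 0.580 and 0.630 in y w, 0.445 and 0.488 in Pngl+/-, 0.980 and 1.02 in Pngl Dp/+, and 0.556 and 0.553 in the libraries labelled Pngl-/-. The ratio was thus highest in Pngl Dp/+, where Pngl was lowest and Strica was at the level of the other controls. Pngl was 2.07-fold higher in Pngl+/- than in Pngl Dp/+, while Strica was 1.04-fold higher in Pngl Dp/+ than in Pngl+/-. In the libraries labelled Pngl-/- both genes were at their highest, with means of 57.5 CPM for Pngl and 32.5 CPM for Strica. The part of the shared bases in the higher count of Strica in the libraries labelled Pngl-/- was not tested.

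Dronc and Dark, the initiator caspase and the adaptor that activates it, were highest in y w. Dronc (FBgn0026404, chromosome 3L) was at 21.8 and 19.0 CPM in y w, 9.12 and 9.55 in Pngl+/-, 11.9 and 12.9 in Pngl Dp/+, and 10.1 and 9.79 CPM in the libraries labelled Pngl-/-. The y w libraries lay above the other 6. Dronc was called lower against y w in the libraries labelled Pngl-/- (log2 fold change -1.03 ± 0.09, adjusted p = 4.1e-08), in Pngl+/- (-1.12 ± 0.09, adjusted p = 2.5e-08) and in Pngl Dp/+ (-0.70 ± 0.08, adjusted p = 2.7e-06). The last call of Dronc was lost when tested against a fold change of 1.5 (adjusted p = 0.272). The difference between the libraries labelled Pngl-/- and Pngl+/- did not pass the test (0.09 ± 0.11, adjusted p = 0.485).

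Dark (FBgn0263864, chromosome 2R) was at 15.3 and 14.2 CPM in y w, 7.37 and 7.19 in Pngl+/-, 9.50 and 10.2 in Pngl Dp/+, and 5.26 and 5.46 CPM in the libraries labelled Pngl-/-. No genotypes overlapped, and the libraries labelled Pngl-/- were the lowest. Dark was called lower in them against y w (log2 fold change -1.46 ± 0.10, 0.365-fold, adjusted p = 2.3e-09) and against Pngl Dp/+ (-0.89 ± 0.11, adjusted p = 2.1e-06). Against Pngl+/- the value was -0.44 ± 0.12 (adjusted p = 0.0051), under the fold limit. Pngl+/- was lower in Dark than y w as well (-1.01 ± 0.09, adjusted p = 1.1e-07). In Pngl Dp/+ against y w it was at -0.57 ± 0.08, just short of the fold limit, and it passed that limit without y w replicate 2 (-0.63) or without Pngl Dp/+ replicate 2 (-0.63). An antisense gene, asRNA:CR44390, shares 56.9% of the exon bases of Dark, but it had no more than 33 counts in any library against 101 or more for Dark.

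The effector caspases fell into different patterns. Decay, which has the short prodomain of an effector caspase, had the highest level per length of the 10 genes in every genotype, from a mean of 80.4 RPKM in Pngl Dp/+ to 142 RPKM in the libraries labelled Pngl-/-. Decay (FBgn0028381, chromosome 3R) was at 92.7 and 87.1 CPM in y w, 111 and 113 in Pngl+/-, 91.8 and 87.0 in Pngl Dp/+, and 162 and 153 CPM in the libraries labelled Pngl-/-. The latter lay above all 6 control libraries. It was called higher against y w (log2 fold change 0.81 ± 0.04, 1.75-fold, adjusted p = 1.5e-10) and against Pngl Dp/+ (0.82 ± 0.04, 1.76-fold, adjusted p = 1.8e-10). Against Pngl+/- the difference was 0.49 ± 0.04 (1.41-fold, adjusted p = 1.4e-07), under the fold limit. Without composition normalization the values were 0.42 against y w and 0.48 against Pngl Dp/+, and neither was called. The overlapping levels of y w and Pngl Dp/+ did not differ beyond their spread (adjusted p = 0.887).

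Dcp-1, which takes part in apoptosis and in autophagy of the fly ovary, was called higher against y w alone, although both libraries labelled Pngl-/- lay above all 6 control libraries. Dcp-1 (FBgn0010501, chromosome 2R) was at 20.0 and 19.9 CPM in y w, 22.9 and 23.0 in Pngl+/-, 25.5 and 25.1 in Pngl Dp/+, and 30.9 and 34.8 CPM in the libraries labelled Pngl-/-. The genotypes did not overlap, and Pngl+/- and Pngl Dp/+ lay between y w and the libraries labelled Pngl-/-. The log2 fold change was 0.72 ± 0.07 against y w (adjusted p = 9.8e-08), 0.52 ± 0.07 relative to Pngl+/- and 0.38 ± 0.06 relative to Pngl Dp/+ (adjusted p = 1.0e-05 and 8.6e-05), the last 2 under the fold limit. Without composition normalization the value against y w was 0.33 and was not called. The libraries of Pngl Dp/+ and Pngl+/- did not overlap, but their difference did not pass the fitted test (adjusted p = 0.0839). Dcp-1 shares 239 exon bases with pita on the opposite strand, a gene at 12.6 to 16.4 CPM.

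Drice and Damm were called in no comparison, apart from Drice as lower against Pngl Dp/+ without composition normalization (-0.66) and Damm in alternatives such as TMM factors from all genes, where it was called higher against Pngl Dp/+ (0.64). Drice (FBgn0019972, chromosome 3R), the main effector caspase of the fly, was at 32.0 and 32.9 CPM in y w, 38.4 and 37.1 in Pngl+/-, 40.1 and 40.2 in Pngl Dp/+, and 31.7 and 32.7 CPM in the libraries labelled Pngl-/-. The libraries labelled Pngl-/- and y w overlapped, and their difference was -0.01 ± 0.06 on the log2 scale (adjusted p = 0.842), with a sign that changed with the scaling. Drice was at -0.23 ± 0.06 against Pngl+/- and -0.32 ± 0.06 against Pngl Dp/+, the opposite sign to Decay, Dcp-1 and Strica in these comparisons. Damm (FBgn0033659, chromosome 2R), a less studied caspase of the fly, was at 78.4 and 72.3 CPM in y w, 90.1 and 83.7 in Pngl+/-, 60.5 and 58.5 in Pngl Dp/+, and 79.9 and 86.5 CPM in the libraries labelled Pngl-/-. Pngl Dp/+ was the lowest genotype for Damm, at -0.34 ± 0.05 against y w and -0.55 ± 0.05 against Pngl+/-. CG42531 lies wholly within exons of Damm on the opposite strand, and it had at most 4 counts in a library against 1369 or more for Damm.

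The composition of the caspase RNA differed as well. Of the summed RPKM of the 6 caspases, Decay made up 58.9% to 61.6% in the libraries labelled Pngl-/-. Its share was 49.2% to 49.6% for y w, 50.0% to 51.2% for Pngl Dp/+ and 52.7% to 54.3% for Pngl+/-. Dronc made up 5.90% to 6.42% in y w and 2.08% to 2.12% in the libraries labelled Pngl-/-. Drice made up 6.96% to 7.25% in the latter and 9.88% to 13.3% in the control libraries. These shares sum to a whole within each library, do not depend on the scaling between libraries and were not tested.

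Diap1 in the libraries labelled Pngl-/- exceeded each control, but by less than the fold limit. Diap1 (FBgn0260635, chromosome 3L) was at 105 and 107 CPM in y w, 106 and 104 in Pngl+/-, 124 and 120 in Pngl Dp/+, and 150 and 151 CPM in the libraries labelled Pngl-/-. The libraries labelled Pngl-/- lay above all 6 others, and y w and Pngl+/- overlapped. The log2 fold change was 0.51 ± 0.04 against y w (1.42-fold, adjusted p = 3.5e-09), 0.52 ± 0.04 against Pngl+/- (1.43-fold, adjusted p = 7.6e-09) and 0.30 ± 0.04 against Pngl Dp/+ (1.23-fold, adjusted p = 1.6e-06), which became -0.04 without composition normalization. With TMM factors from all genes, it passed the limit against y w (0.71) and Pngl+/- (0.60).

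The antagonists of Diap1 were scarce, and they differed from each other. hid (FBgn0003997, chromosome 3L) was at 3.32 and 3.71 CPM in y w, 1.09 and 1.66 in Pngl+/-, 2.56 and 2.77 in Pngl Dp/+, and 1.04 and 0.795 CPM in the libraries labelled Pngl-/-, from 16 to 103 counts in a library. The libraries labelled Pngl-/- lay below all others. In the fit of 9762 genes, hid was called lower in them against y w (log2 fold change -1.80 ± 0.26, 0.287-fold, adjusted p = 1.5e-05) and against Pngl Dp/+ (-1.43 ± 0.26, adjusted p = 2.2e-04). Against Pngl+/- it was at -0.50 ± 0.31 (adjusted p = 0.195). Pngl+/- stood lower in hid than y w too (-1.30 ± 0.23, adjusted p = 2.0e-04), and hid was called higher in Pngl Dp/+ than in Pngl+/- (0.93 ± 0.24, adjusted p = 0.0045), a call lost without Pngl+/- replicate 1 (0.64, adjusted p = 0.0634) and when hid was tested against a fold change of 1.5 (adjusted p = 0.171). In this fit 25.8% of genes were called lower against y w and 23.1% lower against Pngl Dp/+ in the libraries labelled Pngl-/-, 20.2% lower in Pngl+/- than in y w, and 15.3% higher in Pngl Dp/+ than in Pngl+/-.

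rpr (FBgn0011706, chromosome 3L) was at 1.81 and 1.77 CPM in y w, 2.13 and 1.40 in Pngl+/-, 1.77 and 1.69 in Pngl Dp/+, and 1.51 and 1.69 CPM in the libraries labelled Pngl-/-, from 26 to 53 counts. The libraries of Pngl+/- spanned those of the other genotypes. The log2 fold changes of the libraries labelled Pngl-/- were -0.02 ± 0.25, -0.08 ± 0.26 and 0.01 ± 0.25, with y w first, then Pngl+/- and last Pngl Dp/+, so that a difference was not detectable at this depth. The scale of the second fit differs from that of the CPM values, which use the factors of the first. The other antagonists, grim and skl, had 3 to 11 and 8 to 28 counts in a library and were not tested.

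**Figure D2:**
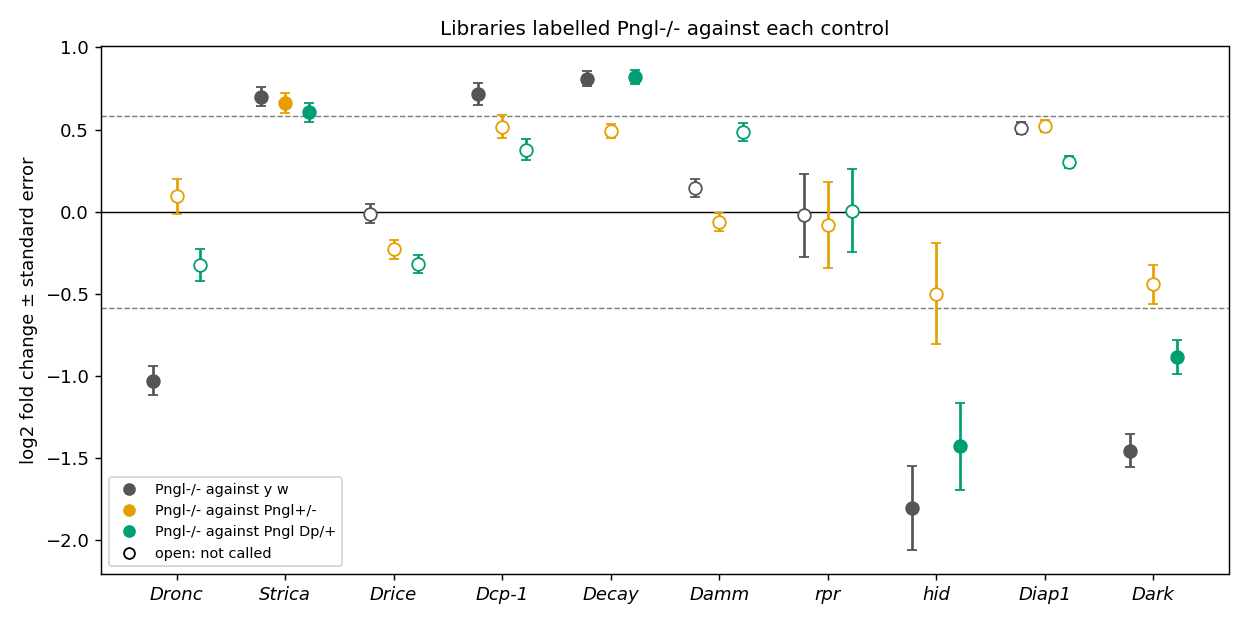
Log2 fold change ± standard error of the 10 genes in the libraries labelled Pngl-/- against each control, with filled points for called genes, open points for others and dashed lines at a fold change of 1.5. Strica is filled in all 3 comparisons, from 0.61 to 0.70, and Dronc, Dark and hid are lowest against y w, at -1.03, -1.46 and -1.80.

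Read against all genes, the number of members called was as follows. Against y w, 3 of the 8 tested members were called higher in the libraries labelled Pngl-/- (Strica, Dcp-1 and Decay) and 2 lower (Dronc and Dark), where 17.9% and 24.4% of all genes were. The median log2 fold change was 0.33 over the 8 members and -0.01 over all genes. Against Pngl+/-, Strica (1 gene) was called higher, where 7.58% of genes were called higher and 13.1% lower. At an unadjusted p under 0.05, 4 members were higher and 2 lower in that comparison. The share of all genes at this unadjusted threshold was not counted, so these numbers cannot set the members apart. Against Pngl Dp/+, 2 members were called higher (Strica and Decay) and 1 lower (Dark), where 12.1% and 22.2% of genes were. Without composition normalization that comparison held 3 lower members (Dronc, Drice and Dark) and neither Strica nor Decay. In that scaling 2797 of 7665 genes were called lower and 371 higher. The 3 comparisons share the libraries labelled Pngl-/-.

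The controls differed from each other as well. In Pngl+/- against y w, 2 of 8 members were called lower (Dronc and Dark), where 17.5% of genes were called lower and 30.6% in either direction. In Pngl Dp/+ against y w, Dronc (1 gene) was called lower, where 5.68% of genes were called lower and 6.78% higher. In Pngl Dp/+ against Pngl+/-, edgeR called 0 of the 8 members and so did DESeq2, where 14.0% of genes were called higher and 7.91% lower. At an unadjusted p under 0.05, 3 members were higher and 2 lower there, again without a count of all genes at that threshold.

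**Figure D3:**
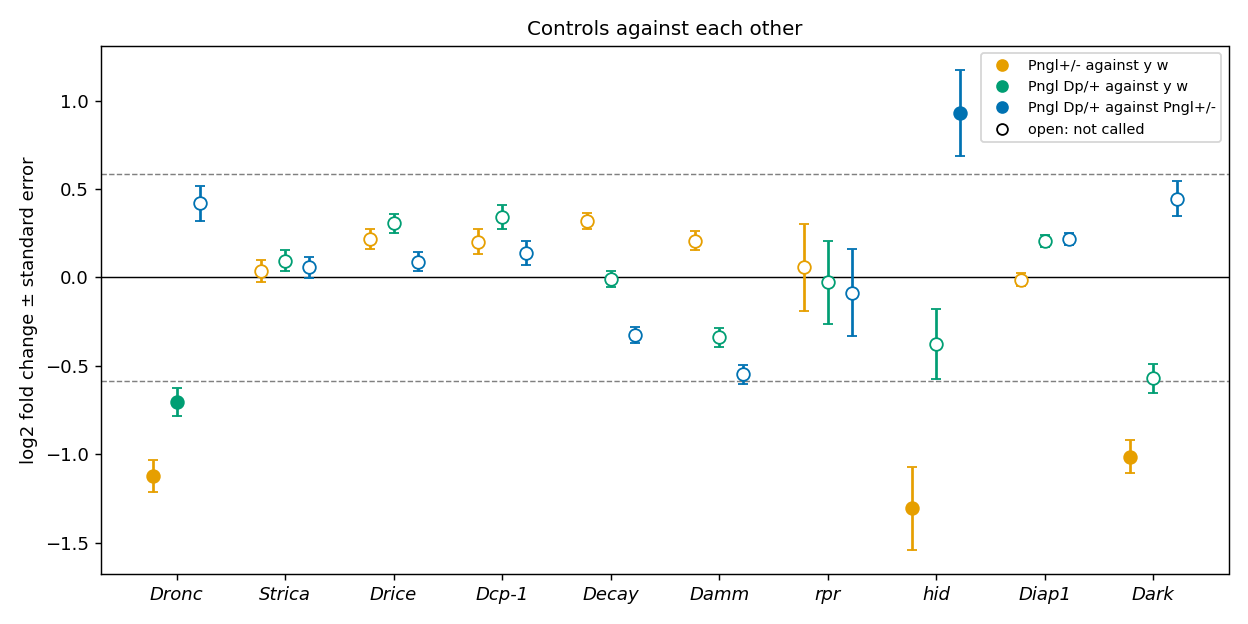
Log2 fold change ± standard error of the 10 genes between the controls, with filled points for called genes, open points for others and dashed lines at a fold change of 1.5. Dronc, Dark and hid are low in Pngl+/- against y w, at -1.12, -1.01 and -1.30, while Strica lies between 0.04 and 0.09 in all 3 comparisons.

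Of the marker lists of other cell types, the sums of visceral muscle, trachea and haemocytes had the same order over genotypes as Dark and hid, and those of several others did not. The summed level of 4 visceral muscle genes (Mhc, Mef2, bt and Act57B) was 2981 to 3039 CPM in y w and 2836 to 2847 CPM in Pngl Dp/+, but 1358 to 1374 CPM in Pngl+/- and 1306 to 1307 CPM in the libraries labelled Pngl-/-. All 4 genes were detected, but they did not share 1 order. Mef2 had means of 24.8, 32.6, 26.6 and 26.3 CPM in the order of genotypes just given. Act57B, which made up most of the sum, had 2278, 2166, 1032 and 1067 CPM, so it was lowest in Pngl+/-. Mhc and bt had the order of the sum. The 3 tracheal genes (btl, trh and Gasp) summed to 86.5 to 87.8 CPM in y w, 79.9 to 84.0 CPM in Pngl Dp/+, 49.4 to 50.6 CPM in Pngl+/- and 38.9 to 39.1 CPM in the libraries labelled Pngl-/-. The 4 haemocyte genes (Hml, NimC1, eater and Pxn) summed to 50.8 to 62.2 CPM in the controls and 22.4 to 23.2 CPM in the libraries labelled Pngl-/-. Hml and eater were lowest there, but NimC1 was lowest in y w (0.880 CPM, against 3.03 CPM in the libraries labelled Pngl-/-) and Pxn was highest in Pngl+/- (33.7 CPM). None of these genes was at 0 in all libraries. Dark and hid followed the order of these 3 sums, high in y w, then Pngl Dp/+, Pngl+/- and the libraries labelled Pngl-/-. The 2 germ line genes fell in this order too, near the floor. They summed to 0.966 to 1.08 CPM in y w and 0.319 to 0.707 CPM in Pngl Dp/+. In Pngl+/- the sum was 0.0537 to 0.331 CPM, which overlapped Pngl Dp/+, and in the libraries labelled Pngl-/- 0 to 0.0521 CPM. The sums of the next lists had other orders. Fat body genes were highest in Pngl+/- (50719 to 52959 CPM, against 30044 to 30406 CPM in y w), salivary gland genes in Pngl Dp/+ (6693 to 6789 CPM), enteroendocrine genes in the libraries labelled Pngl-/- (75.7 to 77.7 CPM), and Malpighian tubule genes were lowest in Pngl Dp/+ (27.3 to 28.1 CPM). Single genes departed from these sums. Fbp1 and Fbp2 of the fat body had lower means in Pngl+/- (977 and 665 CPM) than in y w (1752 and 1228 CPM). Lsp1alpha, Lsp1beta, Lsp1gamma and Lsp2 were higher in Pngl+/-. The enteroendocrine gene pros had the order of Dark and hid, from 16.6 CPM in y w to 2.19 CPM in the libraries labelled Pngl-/-. AstA was highest in y w, while Tk, NPF, AstC and Dh31 were highest in the libraries labelled Pngl-/-. The part of these cell types in the levels of Dronc, Dark and hid was not tested.

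Ratios within a library do not depend on the scaling between libraries. The ratio of Decay to Diap1 per kilobase of exon was 2.49 and 2.31 in y w, 2.96 and 3.07 in Pngl+/-, 2.09 and 2.05 in Pngl Dp/+, and 3.05 and 2.87 in the libraries labelled Pngl-/-. The libraries labelled Pngl-/- and Pngl+/- overlapped and lay above the other 4. The ratio of the summed effector caspases to Diap1 had a mean of 4.55 in the libraries labelled Pngl-/-, between the controls, which stood at 3.73 (Pngl Dp/+), 4.34 (y w) and 5.28 (Pngl+/-). The ratio of Strica to Diap1 had a mean of 0.249 in the libraries labelled Pngl-/- and of 0.202 (Pngl Dp/+), 0.218 (y w) and 0.226 (Pngl+/-) in the controls. The ratio of hid to Diap1 had a mean of 0.0259 in y w, 0.0171 in Pngl Dp/+, 0.0103 in Pngl+/- and 0.00477 in the libraries labelled Pngl-/-. These ratios were not tested.

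**Figure D4:**
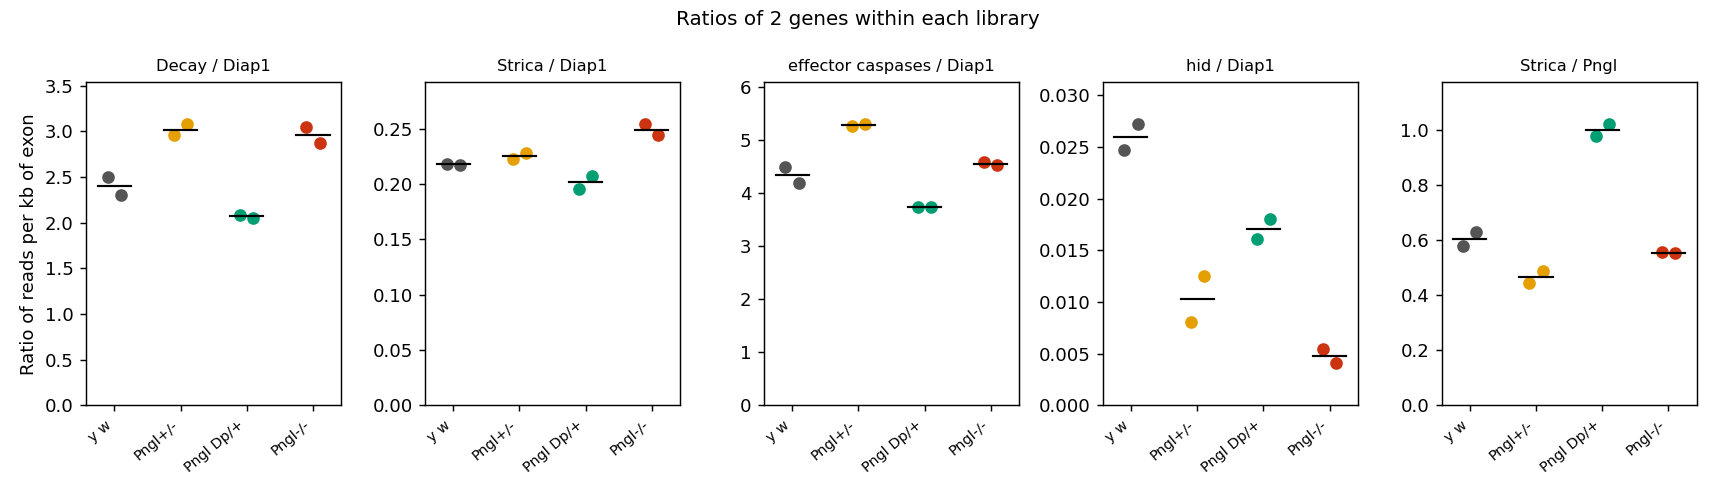
Ratios of reads per kilobase of exon of 2 genes, or of the summed effector caspases and a gene, within each library (linear axes from 0), with a point for each library and a line at the mean of a genotype. Decay to Diap1 is near 3 in Pngl+/- and in the libraries labelled Pngl-/-, at means of 3.02 and 2.96, and Strica to Pngl is near 1 in Pngl Dp/+.

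Other genes of the pathway were taken from lists. In the caspase-8 and death receptor branch (Dredd, Fadd, egr, wgn and grnd), 1 of 5 genes was called higher (Fadd, an adaptor of Dredd, 0.73) and 2 lower against y w in the libraries labelled Pngl-/-, beside 17.9% and 24.4% of all genes. egr, the fly TNF ligand, was at -1.22 ± 0.09 on the log2 scale against y w, -0.49 relative to Pngl+/- and -0.25 relative to Pngl Dp/+, and was called lower against y w alone. grnd, a receptor of this ligand, was called lower against y w (-0.65 ± 0.11) and Pngl Dp/+ (-0.68 ± 0.11). It was the 1 gene of this list called against Pngl Dp/+, beside 22.2% of all genes called lower.

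Of 7 tested IAP proteins and IAP regulators, 3 were called lower against y w, 2 against Pngl Dp/+ and 1 against Pngl+/-, beside 24.4%, 22.2% and 13.1% of all genes. Ubr3, a ubiquitin ligase, was called lower against all 3 controls, at -1.08 ± 0.08, -0.86 ± 0.08 and -0.73 ± 0.08, in the order y w, Pngl+/-, Pngl Dp/+, which later triplets of values follow. Bruce, a giant protein with a BIR domain, had the same order of genotypes as Dark, with means of 39.2 CPM in y w, 31.9 CPM in Pngl Dp/+, 14.1 CPM in Pngl+/- and 11.6 CPM in the libraries labelled Pngl-/-.

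Parp1, the fly poly(ADP-ribose) polymerase, was called lower against all 3 controls (-0.59, -0.62 and -0.70), as were 8.51% of all genes. The nuclease gene DNaseII, the other tested gene of its list, was at -0.30, -0.02 and -0.40 and was not called. Of the mitochondrial factors, Cyt-c-p, which encodes cytochrome c, was at 0.48, -0.03 and 0.34 and AIF at 0.44, 0.26 and 0.19, none called. Of 5 tested genes of the p53 list, 1 was called lower against y w (RnrL, a ribonucleotide reductase subunit, -0.73), beside 24.4% of all genes. Another, mre11, a DNA repair nuclease, was called higher against Pngl+/- (0.82), beside 7.58% of all genes. Of 8 tested engulfment genes, 2 were called lower against y w and 3 against Pngl Dp/+, beside 24.4% and 22.2% of all genes, among them mbc, an activator of Rac, at -1.16 and -1.08, and ced-6, an adaptor of the receptor Draper, called against Pngl Dp/+ alone at -0.999. In the other direction, crq, an engulfment receptor, was called higher against Pngl Dp/+ (0.66), beside 12.1% of all genes. The gene drpr, which encodes Draper, was called higher against Pngl+/- (0.61), beside 7.58% of all genes. Fadd, crq, drpr and, in the next list, Hr4, Eip78C and usp were chosen for naming after their values were seen.

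Of 10 tested ecdysone response genes, 7 were called lower against y w, 5 against Pngl Dp/+ and 3 against Pngl+/-, beside 24.4%, 22.2% and 13.1% of all genes. The list had a median log2 fold change of -1.22, -0.25 and -0.63 where that of all genes was -0.01, -0.05 and -0.02. Against Pngl+/-, 2 genes were called higher, beside 7.58% of all genes (Hr4, 2.52, from 1 and 5 counts in the Pngl+/- libraries, and Eip78C, 0.88). Hr4 and Eip78C passed the filter of 5 CPM through y w alone, with means of 7.49 and 7.78 CPM there. The direction of their calls against y w (-3.06 and -1.55) was thus set by the filter. These 2 genes add no support to the count of 7 or to the median against y w. usp, which encodes the partner of EcR, was at 0.22, 0.06 and 0.27 and was not called. EcR, the ecdysone receptor, was called lower in all 3 (-1.27, -0.73 and -1.47), as were the early response genes Eip74EF (-1.88, -1.24 and -1.62) and br (-2.61, -1.26 and -2.07). The mean level of br was 99.2 CPM in y w, 68.5 CPM in Pngl Dp/+, 38.9 CPM in Pngl+/- and 16.3 CPM in the libraries labelled Pngl-/-, the same order of genotypes as for Dark and hid. The part of developmental stage in the levels of the 10 genes was not tested.

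**Figure D5:**
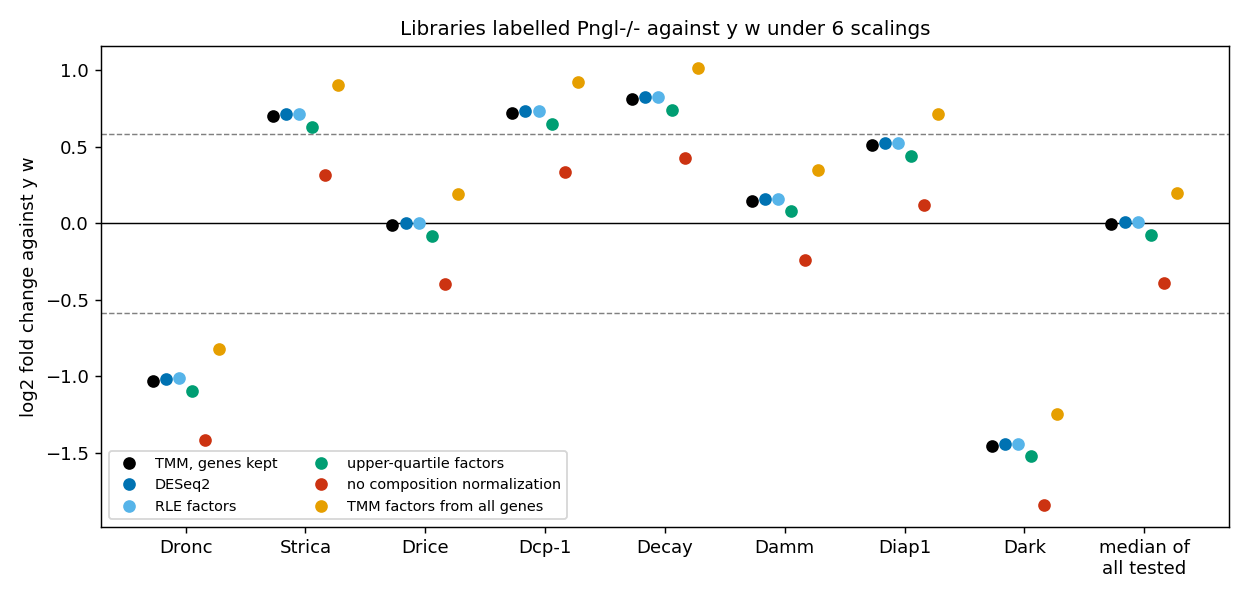
Log2 fold change of the 8 tested members, and the median of all tested genes, in the libraries labelled Pngl-/- against y w under 6 scalings, with dashed lines at a fold change of 1.5. All genes shift together with the median, from -0.39 without composition normalization to 0.20 with TMM factors from all genes. The order of the members is kept, which follows from a nearly equal shift of all genes and is not a separate test.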

How the data were processed

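The deposited table holds raw counts per gene for 17713 genes. Per the labels, the authors used TruSeq stranded mRNA libraries and paired-end reads. The submitters' processing notes name cutadapt 1.4, STAR 2.5.3 and dm6, and the study counted reads over collapsed FlyBase exons. Strand and multi-mapped reads in the counting are not given in the sources used here. Counts were fitted in edgeR 4.0.16 (R 4.3.3) with 1 mean per genotype over all 8 libraries, TMM factors on genes with at least 5 CPM in at least 2 libraries (7665 genes), and the quasi-likelihood test. The common dispersion was 0.00194. Replicate libraries differed beyond sampling noise (chi-square per gene 2.19 to 10.1). Positions came from a Release 6 annotation. The 10 members and the lists were chosen with earlier results of these data known. From the other lists the text names genes called in 1 direction against all 3 controls and the 2 largest mean changes, and for Strica the 3 most alike genes. Markers esg, Dl, dr and nos were not used here. Alternatives were other scalings, filters and tests (DESeq2 1.42.0 included), a replicate block and leaving out each library. The fits for rpr and hid at 1 CPM and a crossed block were chosen after seeing the data.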

Additional observations from a re-analysis of the deposited data

How the results depend on the processing

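With 2 libraries per genotype, tests rest on a spread shared by all genotypes, and hid and rpr on few counts. The numbers did not pair the samples (correlation of replicate differences -0.20 for y w with Pngl Dp/+, 0.38 for Pngl+/- with Pngl Dp/+, and -0.07 to 0.00 for the others). The replicate block changed no call, with 5, 1, 3, 2, 1 and 0 members called in the order below, nor did the crossed block for Pngl Dp/+ against y w (1 member). The likelihood ratio test and fits of only the compared genotypes changed no call either, and no member called in a comparison of the report changed direction in it under any alternative run.

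Members called against y w in the libraries labelled Pngl-/- numbered 5, and 7 with 1 CPM or no filter, where Diap1 and hid were added, 6 where TMM factors came from all genes, and 2 without composition normalization (0 higher at this threshold, and 2 lower). Counts with 1 CPM or no filter are over 10 members, those elsewhere over 8. Against Pngl+/- the number was 1, and 3 with TMM factors from all genes, with 1 CPM or with no filter, 0 when tested against a fold change of 1.5, and 1 to 2 with a library left out (2 without Pngl-/- replicate 1, where Dcp-1 was added at 0.60). Against Pngl Dp/+ it was 3 (2 higher and 1 lower), 5 with 1 CPM or no filter, 4 with TMM factors from all genes, where Damm was added at 0.64, and 2 when tested against a fold change of 1.5. Without composition normalization it was 3 again, but 0 higher and 3 lower, with Strica (0.26) and Decay (0.48) lost and Dronc (-0.67) and Drice (-0.66) gained. For Pngl+/- against y w it was 2, and 3 with 1 CPM or no filter, where hid was added. For Pngl Dp/+ against y w it was 1, and 2 with DESeq2, upper-quartile factors or no composition normalization, 0 when tested against a fold change of 1.5, and 1 to 2 with a library left out (2 without y w replicate 2 or Pngl Dp/+ replicate 2, where Dark was added). For Pngl Dp/+ against Pngl+/- it was 0, and 2 without composition normalization, 1 with TMM factors from all genes, 2 with 1 CPM or no filter, and 0 to 1 with a library left out (1 without Pngl+/- replicate 2, where Damm was added at -0.60). The count called higher than in all 3 controls was 1, and 0 without composition normalization or when tested against a fold change of 1.5.

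Signs that changed belonged to values called in no fit, and the cause was not tested. Drice against y w in the libraries labelled Pngl-/- was 0.00052 with DESeq2, 0.00048 with RLE factors, 0.19 with TMM factors from all genes or no filter, 0.12 with 1 CPM, and -0.032 to 0.040 with a library left out. Without composition normalization, Damm against y w was -0.24 and Diap1 against Pngl Dp/+ was -0.040 in these libraries, and in Pngl+/- against y w Strica was -0.33, Drice -0.15, Dcp-1 -0.16, Decay -0.046 and Damm -0.16. Damm against Pngl+/- in the libraries labelled Pngl-/- was 0.013 with TMM factors from all genes or no filter and 0.0064 with 1 CPM. In Pngl+/- against y w, Strica was -0.033 with upper-quartile factors, and Diap1 was 0.12 with TMM factors from all genes or no filter and 0.053 with 1 CPM. In Pngl Dp/+ against y w, Decay was 0.038 with TMM factors from all genes or no filter, 0.013 with 1 CPM, and -0.062 to 0.033 with a library left out. Strica in Pngl Dp/+ against Pngl+/- was -0.024 with TMM factors from all genes and -0.025 with no filter. For rpr, in the libraries labelled Pngl-/- against y w, TMM factors from all genes or no filter gave 0.048. Against Pngl Dp/+, rpr was -0.019 with DESeq2, -0.017 with RLE factors, -0.075 with upper-quartile factors, -0.45 without composition normalization and -0.041 with only the compared genotypes. In Pngl+/- against y w, rpr was -0.043 with upper-quartile factors and -0.37 without composition normalization, and in Pngl Dp/+ against Pngl+/- it was 0.27 without composition normalization. With a library left out, rpr ranged from -0.16 to 0.0011 against y w, -0.38 to 0.21 against Pngl+/- and -0.13 to 0.030 against Pngl Dp/+ in the libraries labelled Pngl-/-, and in the controls from -0.29 to 0.31 (Pngl+/- against y w), -0.062 to 0.0029 (Pngl Dp/+ against y w) and -0.33 to 0.26 (Pngl Dp/+ against Pngl+/-).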
